A study of Mus musculus with 18 samples.

Results

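The comparison set N171-HD82Q transgenic cerebellum against wild-type cerebellum from male mice of 10 weeks. It rests on 6 of the 18 arrays of the study, 3 per genotype, chosen by the tissue, age and genotype in their titles. The study profiled hippocampus and cerebellum RNA on Affymetrix mouse gene arrays, with hippocampus also taken at 20 weeks. Each array held RNA pooled in equal amounts from 3 to 4 animals and was labelled as a biological replicate, so the p-values measure the spread between pools and not between mice. The transgenic line, PrP-htt-N171-82Q, expresses the N-terminal part of human huntingtin, lengthened in its glutamine tract, from the prion protein promoter, which is active in many cell types. Animals of both genotypes had a background of DBA mixed with C57BL/6J, and no treatment is named for them. All 19938 genes with a probe set of their own were compared, on the deposited log2 scale and as transgenic minus wild type.

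Huntington's disease is caused by an expanded glutamine tract in huntingtin, and its best known target is the striatum. The cerebellum is built from very many granule neurons, whose parallel fibres excite Purkinje neurons, together with inhibitory interneurons of the molecular and granular layers, unipolar brush cells, Bergmann glia and the neurons of the deep nuclei. Activity in these neurons raises calcium and cAMP, which switch on immediate early genes through factors such as CREB.

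Markers of the labelled tissue were high. In wild-type cerebellum Cbln3, made by granule neurons, lay at 12.79 (SD 0.106, n = 3), against 5.70 (SD 0.316, n = 3) in wild-type hippocampus of the same age. The Purkinje genes Pcp2 and Car8 lay at 11.59 and 12.89 in cerebellum and at 5.58 and 6.22 in hippocampus. Neurod6, a gene of forebrain excitatory neurons, lay the other way, at 5.81 in cerebellum and 9.61 in hippocampus. The tissues appear to have been normalised separately, so these levels are a check of identity only. Correlations over the genes tested were 0.9967 to 0.9977 among wild-type arrays, 0.9978 to 0.9981 among transgenic arrays and 0.9920 to 0.9949 between genotypes. Over all probe sets, unnamed ones included, the lowest correlation among wild-type arrays (0.9926) was below the highest between genotypes (0.9933). Wild-type array 2 stood apart in its choroid plexus genes and in its weight on the number of calls, both given below. Array medians were 7.64 to 7.68 in wild type and 7.58 to 7.63 in transgenic, and the median change over all genes was -0.05.

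The prion protein gene, whose promoter drives the transgene, was examined as a possible check of the genotype labels. Prnp lay at 11.75, 11.58 and 11.69 on the wild-type arrays and at 12.77, 12.71 and 12.75 on the transgenic arrays. All 3 transgenic pools were higher than every wild-type pool, by 1.07 (SE 0.0658, adjusted p = 2.51e-06 in limma with Benjamini-Hochberg adjustment). The sources used here do not give whether this probe set also reads transcript of the transgene. The mouse huntingtin gene Htt lay at 10.28, 10.23 and 10.42 in wild type and at 10.30, 10.42 and 10.32 in transgenic, a difference of 0.04 (adjusted p = 0.747). The ranges overlapped, and that probe set was not shown to read the human fragment. The 250 bases upstream of the mouse Prnp start are shown because the transgene was built on this gene's promoter; the part that the transgene holds was not examined. They come from RefSeq, build GRCm38.p6, plus strand, chr2:131909678-131909927, 5′ to 3′, with matches to TGACG on either strand in capitals.
Prnp: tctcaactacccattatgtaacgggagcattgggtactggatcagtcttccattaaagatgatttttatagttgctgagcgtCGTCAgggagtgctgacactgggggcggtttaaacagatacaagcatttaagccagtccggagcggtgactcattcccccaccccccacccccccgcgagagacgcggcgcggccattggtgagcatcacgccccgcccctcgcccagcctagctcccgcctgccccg

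Expression differed at many genes, mostly by small amounts. At an adjusted p below 0.05, 2694 genes were called, 13.5% of those tested. Of these, 1038 (5.21%) were higher and 1656 (8.31%) were lower in transgenic cerebellum. Changes of at least 1.5-fold were fewer, at 119 higher (0.597%) and 154 lower (0.772%). A change beyond 1 on the log2 scale was called for 22 genes upwards and 36 downwards. Among the 2694 called genes, 2682 had groups that did not overlap, against 35.1% of all genes with no overlap. With 3 arrays per genotype a call nearly requires such a gap, so this count is no separate support. The balance of rises and falls depended on the scaling of the arrays. After each array was centred on its median 1907 genes were higher and 1030 lower, after quantile normalisation 1103 and 1241, and after cyclic loess 1264 and 1268. With the replicate number as a block, 3893 genes were called, 1367 higher and 2526 lower. The total was 1337 without wild-type array 1, 4114 without wild-type array 2, 1663 without wild-type array 3, 1285 without transgenic array 2 and 1418 without transgenic array 3. Of 191 called genes among those named and those in the lists, 126 held with each array left out and 135 with the spread taken from all 18 arrays. The 30 genes named next were called with each single array left out.

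**Figure D1:**
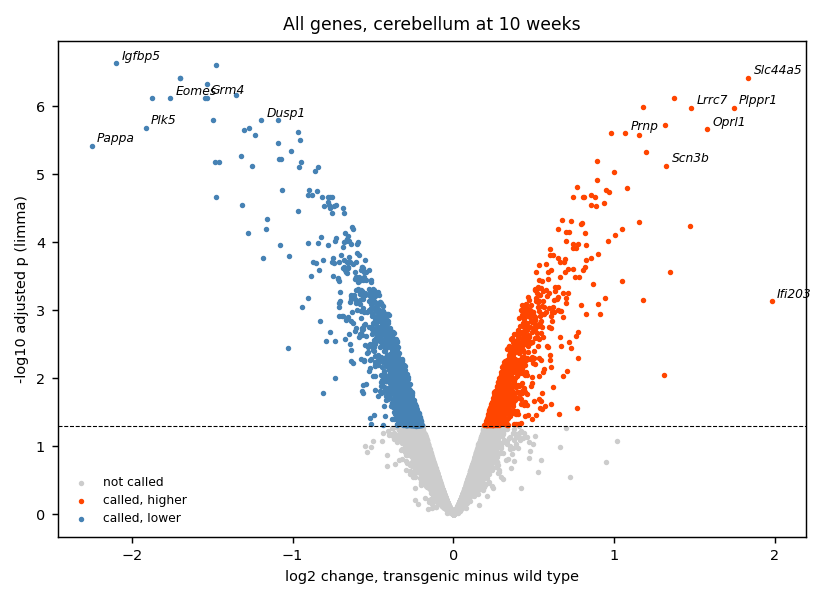
Each point is 1 of 19938 genes; the horizontal axis is the log2 change (transgenic minus wild type) and the vertical axis is minus log10 of the limma adjusted p, with the dashed line at 0.05. Falls reach -2.25 (Pappa) and rises 1.98 (Ifi203), and the 2694 called genes lie above the line.

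The largest falls included several genes of growth factor handling, signalling and the cell surface. Pappa, a secreted protease that cleaves insulin-like growth factor binding proteins, lay at 9.09, 9.21 and 8.49 in wild type and at 6.77, 6.59 and 6.70 in transgenic. It fell by 2.25 (SE 0.147, adjusted p = 3.88e-06), a 4.75-fold lower level and the largest change of any named gene. Igfbp5, a binding protein that Pappa's product cleaves, lay at 10.72, 10.67 and 10.83 in wild type and at 8.61, 8.53 and 8.78 in transgenic, and fell by 2.10 (adjusted p = 2.35e-07). Both genes of this protease and substrate pair were thus lower on every transgenic array. Plk5, a polo-like kinase family member found in brain, lay at 9.85, 9.98 and 10.29 against 8.24, 7.93 and 8.22, and fell by 1.91 (adjusted p = 2.08e-06). Grm4, the metabotropic glutamate receptor of parallel fibre terminals, lay at 11.85, 12.06 and 11.76 against 10.35, 10.33 and 10.36. It fell by 1.55 (adjusted p = 7.54e-07), and its transgenic values spanned a far narrower range than the difference between genotypes. Car4, a membrane-bound carbonic anhydrase, fell from 12.32, 12.36 and 12.31 to 10.82, 10.65 and 10.94, a change of -1.53. Vipr2, a receptor for vasoactive intestinal peptide, fell from 8.49, 8.31 and 8.08 to 6.68, 6.94 and 6.89.

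The other falls among the 15 were of mixed function. The tetraspanin Tspan18 changed by -1.88, the adaptor Stap2 by -1.70, the chitinase-like gene Chil5 by -1.70 and the stress-activated kinase gene Mapk12 by -1.53. The orphan receptor Mrgprf changed by -1.50, the matrix protein gene Svep1 by -1.48, the water channel Aqp6 by -1.48 and Prag1, a pseudokinase, by -1.48. Eomes is described with the unipolar brush cells. Adjusted p for the 15 falls lay between 2.35e-07 and 2.16e-05. Only called genes whose groups did not overlap could be named, so the lack of overlap is no separate result.

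The 15 largest rises ranged from 1.15 to 1.98 and were of mixed function. Ifi203, of an interferon-inducible family with closely related copies, lay at 6.98, 6.61 and 6.81 in wild type and at 8.65, 8.11 and 9.56 in transgenic. Its rise of 1.98 (SE 0.265, adjusted p = 0.000748) was the largest, at 3.94-fold, and the transgenic pools differed widely among themselves. Slc44a5, a choline transporter-like gene, lay at 7.84, 7.75 and 7.57 against 9.55, 9.66 and 9.45, and rose by 1.83 (adjusted p = 3.87e-07). Plppr1, which promotes outgrowth of neurites, lay at 7.58, 7.55 and 7.61 against 9.11, 9.54 and 9.31, and rose by 1.74. Oprl1, the nociceptin receptor, lay at 8.47, 8.21 and 8.33 against 9.98, 10.04 and 9.71, and rose by 1.58. For each of these genes the lowest transgenic pool was above the highest wild-type pool, which was a condition for naming them. Lrrc7, a scaffold of the postsynaptic density, rose by 1.48 from 7.61, 7.86 and 7.85 to 9.16, 9.31 and 9.29.

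Among the remaining rises were Scn3b, an auxiliary sodium channel subunit (1.33), Glra2, the glycine receptor subunit typical of immature neurons (1.35), and the protocadherin Pcdh11x (1.37). Necab1, a neuronal calcium-binding protein, rose from 10.15, 10.17 and 9.97 to 11.32, 11.51 and 11.39, a change of 1.31. Synpr, a synaptic vesicle membrane protein, rose by 1.20, the membrane traffic gene Mal2 by 1.18 and the Wnt antagonist Sfrp4 by 1.18. The mucin Muc15 rose by 1.47 and Csmd3, a large membrane protein of brain, by 1.15. Sostdc1, an antagonist of bone morphogenetic protein and Wnt signals, had the highest adjusted p of the 15 (0.00913), and its values are given with the choroid plexus genes.

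**Figure D2:**
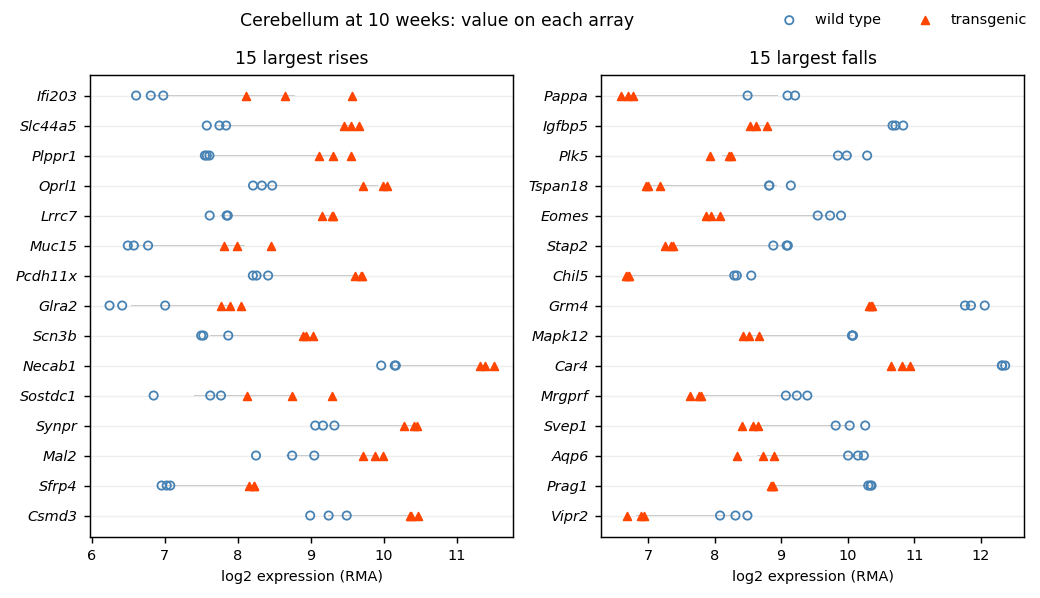
Log2 expression on each of the 6 cerebellum arrays for the 15 largest rises (left) and the 15 largest falls (right); open circles are wild-type pools, triangles are transgenic pools and a grey line joins the group means. The circles and triangles do not overlap in any of the 30 rows, because only genes without overlap were chosen.

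Genes of granule neurons included more falls than rises. Of 22 measured members 9 fell, 2 rose and 11 did not pass. Over all genes 8.31% were lower and 5.21% higher, the comparison for this and every later list. Their median change was -0.19, against -0.05 over all genes. Cbln1, which organises the synapse between parallel fibre and Purkinje neuron, lay at 12.73, 12.83 and 12.75 in wild type and at 12.15, 12.23 and 12.18 in transgenic, and fell by 0.59 (adjusted p = 0.000155). Tiam1, a Rac activator, fell by 0.50, the potassium channel Kcnd2 by 0.46, Cbln3 by 0.42 and the transcription factors Neurod1 and Etv1 by 0.39 and 0.36. Chn2, Rbfox3 and Gabrd fell by 0.33, 0.29 and 0.34. The developmental transcription factors Pax6 and Uncx went the other way and rose by 0.36 and 0.27. Gabra6, a receptor subunit confined to these neurons in the cerebellum, lay at 13.01, 13.10 and 13.00 against 12.87, 12.93 and 12.92, a difference of -0.13 (adjusted p = 0.177). Of the 11 calls 9 held with each array left out. That of Gabrd was lost without wild-type array 1, and that of Uncx on omission of any array but transgenic array 1 (highest adjusted p 0.125). Fewer cells of a type and less RNA per cell cannot be told apart in whole tissue.

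Purkinje genes gave the smaller count. Of 23 measured members 5 fell, none rose and 18 did not pass (median -0.14), against 8.31% lower and 5.21% higher over all genes. The falls were the neurofilament gene Nefh (-0.42), the phospholipases Plcb4 (-0.38) and Plcb3 (-0.26), Stk17b (-0.28) and Gad1 (-0.26), which makes GABA and is shared with interneurons. Pcp2 lay at 11.59, 11.55 and 11.63 in wild type and at 11.41, 11.40 and 11.42 in transgenic, a difference of -0.18 (adjusted p = 0.0685). Calb1 differed by -0.09 (adjusted p = 0.309). The calls of Nefh and Plcb4 held with each array left out, and the other 3 were lost without transgenic array 3 (highest adjusted p 0.0744). In all, the call of Gad1 was lost on omission of 4 of the arrays and that of Plcb3 of 5, 1 at a time.

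The inhibitory interneurons had the most one-sided list of the neuron types. Of 19 measured genes of molecular layer and Golgi interneurons 13 fell, none rose and 6 did not pass. Over all genes 8.31% were lower and 5.21% higher. The median change of the list was -0.33. Grm2, a glutamate receptor of Golgi cells, lay at 9.01, 8.98 and 9.15 in wild type and at 8.39, 8.33 and 8.23 in transgenic, and fell by 0.73 (SE 0.0713, adjusted p = 8.69e-05). Every transgenic value of Grm2 was below every wild-type value. Prkcd fell by 0.50, Lgi2 by 0.55, the receptor tyrosine kinase Kit by 0.40 and the transcription factor Tfap2b by 0.49. Gjd2, which forms electrical synapses between these cells, fell by 0.58, and Sorcs3 by 0.42. The peptide gene Sst fell by 0.73, the serotonin receptor Htr2a by 0.33, Pax2 by 0.31 and the glycine transporter Slc6a5 by 0.37. Gad2 and Pvalb fell by 0.26 and 0.21. Of the 13 calls 7 held with each array left out, and the highest adjusted p of a lost call was 0.154. Omission of each array removed 1 to 5 of these calls, wild-type array 2 the fewest and transgenic array 3 the most.

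Unipolar brush cell markers moved in both directions. Eomes, the transcription factor that marks these cells in the adult cerebellum, lay at 9.73, 9.90 and 9.55 in wild type and at 7.95, 7.87 and 8.08 in transgenic. It fell by 1.76 (SE 0.0909, adjusted p = 7.74e-07). Otx2, a homeobox factor also made by choroid plexus, lay at 8.81, 8.63 and 8.50 against 9.50, 9.34 and 9.58, and rose by 0.82 (adjusted p = 0.000184). Calb2, or calretinin, rose by 0.38 and is also abundant in granule neurons. Plcb4, shared with Purkinje neurons, fell by 0.38 and Sln by 0.41. All 5 measured members were called, 3 lower and 2 higher, so the list as a whole did not move one way, and the call of Sln needed both wild-type array 1 and transgenic array 2 (highest adjusted p on leaving out 1 array 0.0576).

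Each glial list held a smaller share of calls than all genes (13.5%), and vascular genes were not called. Of 25 genes of Bergmann glia and astrocytes 3 fell and none rose: A2m by 0.31, the Wnt inhibitor Wif1 by 0.40 and the filament gene Gfap by 0.34. The call of Gfap needed wild-type array 1 and each transgenic array (highest adjusted p on leaving out 1 array 0.104), those of Wif1, Fa2h and Cldn11 were lost on omission of 3 to 5 of the arrays, and Slc1a3, the Bergmann glial glutamate transporter, differed by 0.09 (adjusted p = 0.323). Of 19 oligodendrocyte genes 2 fell, the myelin lipid enzyme Fa2h by 0.28 and the myelin junction gene Cldn11 by 0.21. No gene was called by limma among 12 of oligodendrocyte precursors, 19 of microglia and macrophages, 19 of endothelium and mural cells, 16 of meninges and fibroblasts and 6 of blood. At an unadjusted p below 0.05 the counts were 1, 2, 0, 3 and 2 in that order. Their medians lay between -0.07 and 0.03. Aif1 and Cx3cr1 of microglia differed by -0.18 and -0.16, with adjusted p of 0.215 and 0.185. With the replicate block in limma, Igfbp2 of the meninges list and Alas2 of the blood list did pass (adjusted p = 0.011 and 0.0173).

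Choroid plexus and neighbouring brainstem tissue were followed because dissection can carry them. Of 19 choroid plexus and ependyma genes 3 rose and 16 did not pass (median 0.21). Ttr, the transthyretin gene of choroid plexus, lay at 12.91, 10.96 and 12.35 in wild type and at 12.84, 13.03 and 13.40 in transgenic. Wild-type array 2 was the low one, and the difference of 1.02 did not pass (adjusted p = 0.0834), although it did with the replicate block (adjusted p = 0.00951). Sostdc1 lay at 7.77, 6.85 and 7.62 against 8.13, 8.74 and 9.29, and rose by 1.31; that call was lost under robust eBayes (adjusted p = 0.105). Calml4 rose by 0.41, and Otx2 is given above. The summed linear level of the list spanned 4840 to 12100 in wild type and 11400 to 16500 in transgenic, and its part in the rises of Otx2 and Sostdc1 was not tested. Of 17 genes of deep nuclei and hindbrain 5 fell and 1 rose (median -0.21). In this list 8 members lay below the lower quartile of level. Its median was -0.125 under quantile normalisation and -0.102 under cyclic loess. The noradrenergic genes Dbh, Slc6a2 and Th fell by 0.69, 0.39 and 0.39, the cholinergic genes Slc18a3 and Chat by 0.34 and 0.29, and Tbr1 rose by 0.31. The calls of Slc18a3, Chat and Tbr1 each needed wild-type array 1 and transgenic array 2 (highest adjusted p 0.104), and under quantile normalisation Slc18a3 and Chat did not pass (adjusted p = 0.0507 and 0.0628). The summed level of that list was 2710 to 3260 in wild type and 2500 to 2790 in transgenic, so the ranges overlapped.

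**Figure D3:**
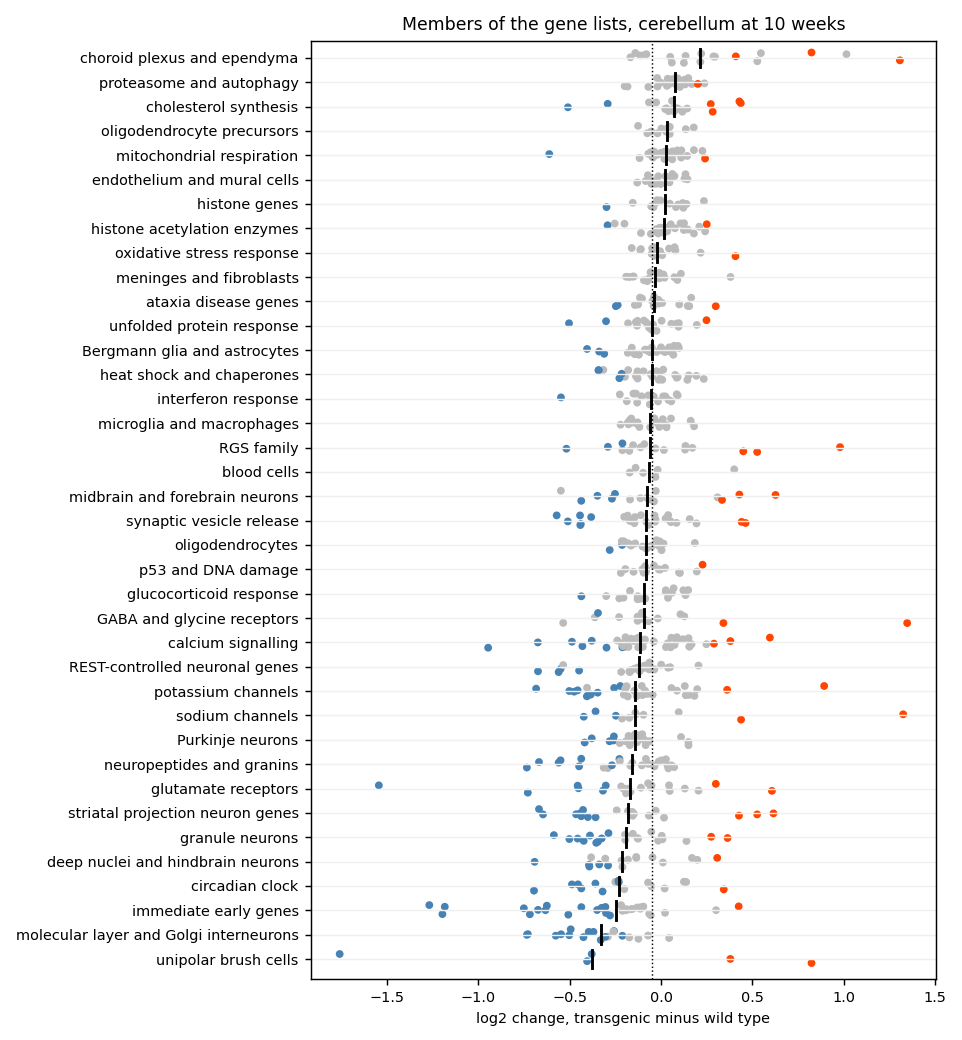
Log2 change of every measured member of each gene list, 1 row per list, ordered by the median (black bar); red points are called higher, blue points are called lower and grey points are not called, and the dotted line is the median of all genes. Unipolar brush cells (-0.38), interneurons (-0.33) and immediate early genes (-0.25) have the lowest medians and choroid plexus (0.21) the highest; some genes are in more than 1 list.

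Receptors for glutamate fell more often than they rose. Of 21 measured genes 6 fell, 2 rose and 13 did not pass (median -0.17), against 8.31% lower and 5.21% higher over all genes. Beside Grm4 and Grm2, the kainate receptor Grik3 fell by 0.46, the AMPA receptor Gria3 by 0.32 and the presynaptic receptors Grm8 and Grm7 by 0.45 and 0.30. Grm5, coupled to phospholipase C, lay at 8.99, 8.66 and 9.26 in wild type and at 9.57, 9.60 and 9.56 in transgenic, and rose by 0.61 (adjusted p = 0.00696). The kainate receptor subunit Grik5 rose by 0.30. The calls of Gria3, Grm8, Grik5 and Grm7 did not hold with each array left out; 3 of them were lost without transgenic array 3 (highest adjusted p 0.121). Of 15 GABA and glycine receptor genes 2 rose and 1 fell. Glra2 lay at 6.24, 6.42 and 7.00 against 7.77, 7.89 and 8.04, Gabra3 rose by 0.34 and Gabrd, the subunit of tonic inhibition, fell by 0.34. The calls of Gabra3 and Gabrd were not held with each array left out (highest adjusted p 0.155).

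Ion channels showed single large rises against many small falls. Of 34 potassium channel genes 10 fell, 2 rose and 22 did not pass (median -0.14), against 8.31% lower and 5.21% higher over all genes. Kcnk2, a mechanosensitive leak channel, lay at 8.11, 8.08 and 8.03 in wild type and at 8.92, 9.03 and 8.96 in transgenic, and rose by 0.89 (adjusted p = 6.43e-06). The rise of Kcnb2 was 0.36. Kcnip4, a partner of A-type channels, lay at 12.56, 12.59 and 12.54 against 11.91, 11.87 and 11.85, and fell by 0.68 (adjusted p = 3.16e-05). Kcnh3 fell by 0.50, Kcnk10 by 0.48, Kcnc1 of fast-spiking neurons by 0.41, Kcnq3 by 0.40, Kcnj9 by 0.38, Kcnt1 by 0.35, Kcna1 by 0.26 and Kcnk3 by 0.22. Only the last pair lost the call when 1 array was omitted, wild-type array 1 or 3 among them (highest adjusted p 0.130). Of 11 sodium channel genes 3 fell and 2 rose. The auxiliary subunit Scn3b rose while its relatives Scn2b and Scn4b fell by 0.42 and 0.36; the leak channel Nalcn rose by 0.44 and Fgf14, a channel partner, fell by 0.25. The call of Fgf14 was lost on omission of any array other than transgenic array 2 (highest adjusted p 0.140).

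Calcium signalling genes included a fall of an upstream kinase. Of 42 measured genes 7 fell, 3 rose and 32 did not pass (median -0.12), against 8.31% lower and 5.21% higher over all genes. Camkk2, the kinase that activates calcium/calmodulin kinases, lay at 10.44, 10.42 and 10.46 in wild type and at 9.47, 9.59 and 9.41 in transgenic, and fell by 0.95 (SE 0.0665, adjusted p = 6.73e-06). Its target Camk4, which acts on CREB in granule neurons, fell by 0.43 and Camk2a by 0.30. The sodium/calcium exchangers Slc8a2 and Slc8a1 fell by 0.67 and 0.49. Cacna2d1, an accessory channel subunit, lay at 10.13, 10.27 and 10.45 against 10.83, 10.95 and 10.86, and rose by 0.60. Cacna1d rose by 0.29, a call that did not hold without wild-type array 1 or 3 (highest adjusted p 0.0850). Of 27 genes of vesicle release 6 fell, among them Cplx2 by 0.57, the active zone scaffold Bsn by 0.51, Rph3a and Vamp1 by 0.44 each, Rims1 by 0.38 and Sv2c by 0.44. Syn3 and Unc13b rose by 0.44 and 0.46. Of these calls only that of Sv2c was lost when 1 array was left out, wild-type array 1 (adjusted p = 0.0521).

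Immediate early genes, which neurons induce within minutes of activity, included more falls than rises. Of 30 measured genes 15 fell, 1 rose and 14 did not pass, against 8.31% lower and 5.21% higher over all genes. The median was -0.25 and 27 of the 30 differences were negative, as were 63.1% over all genes. In hippocampus of 10 weeks the median change of the same genes was -0.245, so the low median was not particular to cerebellum. The promoters of Dusp1 and Nr4a1, picked after the values and matches were seen, are shown because they carry several matches to the core of the CREB site; each stretch is the 250 bases upstream of the start in RefSeq, build GRCm38.p6, 5′ to 3′ on the strand of the gene. Capitals mark TGACG on either strand. Dusp1 lies on the minus strand at chr17:26508473-26508722 and Nr4a1 on the plus strand at chr15:101266596-101266845.
Dusp1: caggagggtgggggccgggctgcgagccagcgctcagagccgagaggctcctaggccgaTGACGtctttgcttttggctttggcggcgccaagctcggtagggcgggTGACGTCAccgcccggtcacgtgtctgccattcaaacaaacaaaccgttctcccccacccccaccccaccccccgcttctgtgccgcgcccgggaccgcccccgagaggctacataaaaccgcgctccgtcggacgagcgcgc
Nr4a1: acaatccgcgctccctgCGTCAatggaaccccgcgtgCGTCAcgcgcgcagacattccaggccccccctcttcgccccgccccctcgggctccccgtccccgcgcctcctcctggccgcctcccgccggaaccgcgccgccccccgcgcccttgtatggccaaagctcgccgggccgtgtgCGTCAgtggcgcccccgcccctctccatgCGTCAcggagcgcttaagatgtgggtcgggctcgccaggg
Dusp1 holds 3 matches, of which the overlapping ones form the full site TGACGTCA, and Nr4a1 holds 4. Of the 24 immediate early genes with a promoter in the table, 17 (70.8%) held TGACG on either strand, as did 12 of 13 that fell, against 24.1% of the 15614 genes with a promoter. The share was 28.3% among called higher genes and 22.0% among called lower genes. Of 14 clock genes with a promoter 4 (28.6%) held TGACG, as did 2 of the 7 clock genes that fell. The full site, which contains TGACG, was in 2 of the 24 (8.33%) and in 1 of the 13 that fell, against 2.33% of all. These matches describe letters in a window and not binding.

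Dusp1, a phosphatase that shuts off MAP kinases, lay at 11.42, 11.31 and 11.27 in wild type and at 10.14, 10.21 and 10.06 in transgenic, and fell by 1.20 (SE 0.0686, adjusted p = 1.62e-06). Dusp5, of the same family, lay at 10.16, 10.36 and 10.13 against 9.02, 8.88 and 8.94, and fell by 1.27. Nr4a2, an orphan nuclear receptor, lay at 10.55, 10.34 and 10.77 against 9.42, 9.10 and 9.60, and fell by 1.18. The 3 genes were separated by about the same distance, and the wild-type and transgenic ranges were well apart. Its relatives Nr4a3 and Nr4a1 fell by 0.75 and 0.72, and the activity factors Npas4, Fos and Egr1 by 0.63, 0.63 and 0.51. Bdnf, a growth factor for neurons, fell by 0.67. Per1 fell by 0.44, Fosl2 by 0.35, Atf3 by 0.33, Sik1 by 0.31, Junb by 0.30 and Fosb by 0.28. Only Ier5 rose among the 30, from 7.51, 7.54 and 7.83 to 8.07, 7.98 and 8.10. Of the 16 calls 11 held with each array left out; wild-type array 1 and transgenic array 2 each removed 5 (highest adjusted p 0.121).

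**Figure D4:**
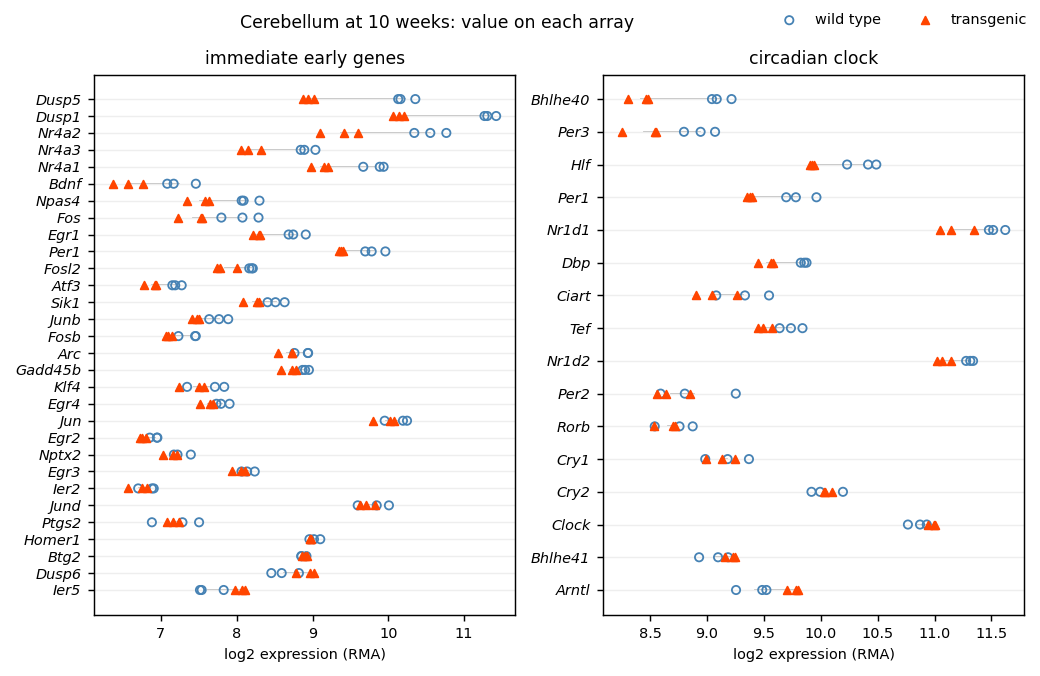
Log2 expression on each array for all 30 measured immediate early genes (left) and all 16 measured clock genes (right), ordered by change; open circles are wild-type pools, triangles are transgenic pools and grey lines join the group means. Dusp1, Dusp5 and Nr4a2 have the widest gaps on the left, and Ier5 and Arntl are the called rises.

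Clock genes were lower too, among them outputs and repressors of the clock. Of 16 measured genes 8 fell, 1 rose and 7 did not pass, against 8.31% lower and 5.21% higher over all genes. The median was -0.23 here and -0.17 in hippocampus of 10 weeks. Bhlhe40, a repressor, lay at 9.04, 9.09 and 9.22 in wild type and at 8.31, 8.47 and 8.48 in transgenic, and fell by 0.70 (adjusted p = 0.000156). The output factors Hlf, Dbp and Tef fell by 0.45, 0.32 and 0.23, the period genes Per3 and Per1 by 0.49 and 0.44, and the repressors Nr1d1 and Nr1d2 by 0.36 and 0.23. Arntl, the activator that Nr1d1 represses, lay at 9.48, 9.52 and 9.25 against 9.71, 9.80 and 9.79, and rose by 0.34 (adjusted p = 0.0156). Of the 9 calls 5 held with each array left out. Those of Nr1d1, Arntl, Nr1d2 and Tef did not. All 4 were lost without transgenic array 3, and Nr1d2 and Tef on omission of 5 of the arrays, 1 at a time (highest adjusted p 0.170).

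Peptide genes that moved were all lower. Of 25 measured neuropeptide and granin genes 8 fell, none rose and 17 did not pass (median -0.16). Over all genes 8.31% were lower and 5.21% higher. Penk, the enkephalin precursor of Golgi cells, lay at 12.23, 12.18 and 12.20 in wild type and at 11.70, 11.65 and 11.27 in transgenic, and fell by 0.67 (adjusted p = 0.00141). The granins Chgb, Scg2 and Vgf fell by 0.55, 0.45 and 0.56. The peptides Cartpt, Cck and Tac1 fell by 0.23, 0.27 and 0.44, and Sst is given above. Omission of transgenic array 2 removed 5 calls (highest adjusted p 0.179). Only 3 of the 8 calls held with each array left out, those of Chgb, Penk and Scg2. Of the 8 genes, 6 had a promoter in the table; all 6 held TGACG and 4 the full site TGACGTCA. Over the 21 listed peptide genes with a promoter, 14 (66.7%) held TGACG and 5 (23.8%) the full site, against 24.1% and 2.33% over all genes.

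Genes known as markers of striatal projection neurons, the cells most affected in the disease, moved in both directions here. Of 19 measured 8 fell, 3 rose and 8 did not pass (median -0.18), against 8.31% lower and 5.21% higher over all genes. Rasd2, which is enriched in striatum and binds huntingtin, lay at 8.61, 8.36 and 8.83 in wild type and at 7.87, 7.94 and 8.06 in transgenic, and fell by 0.65 (adjusted p = 0.00227). Rasgrp2 fell by 0.45, the cannabinoid receptor Cnr1 by 0.43, and the dopamine receptors Drd2 and Drd1 by 0.46 and 0.40. Scn4b, Penk and Tac1 were the other falls. Pde1b rose by 0.62, Rgs9 by 0.53 and Adcy5 by 0.43, each without overlap. Of 22 targets of REST, a repressor of neuronal genes that huntingtin is known to hold in the cytoplasm, 4 fell and none rose, and the 4 were Chgb, Bdnf, Scg2 and Vgf. Of 16 regulators of G protein signalling 3 rose and 3 fell. Rgs17 lay at 8.64, 8.65 and 8.58 against 9.59, 9.57 and 9.64, and rose by 0.98 (adjusted p = 2.51e-06). Rgs19 rose by 0.45, while Rgs16, Rgs6 and Rgs7 fell by 0.52, 0.29 and 0.21. These 3 falls each needed wild-type arrays 1 and 3, and Rgs7 all 6 arrays (highest adjusted p 0.162). In the lists of this paragraph the calls of Vgf and Tac1 did not hold with each array left out either.

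Stress pathways held few called genes. Of 26 chaperone genes 4 fell and none rose: the small heat shock gene Hspb1 by 0.34, Hspa1a by 0.34, Dnajb6, a suppressor of polyglutamine aggregation, by 0.23, and Hspa4l by 0.22. The call of Hspb1 held with each array left out but, like the other 3, not with the spread from all 18 arrays (adjusted p = 0.175); the other 3 each needed wild-type array 1 and transgenic array 2 (highest adjusted p 0.159). Of 21 genes of the unfolded protein response Sdf2l1 and Manf fell by 0.50 and 0.30 and Ern1 rose by 0.25; the calls of Manf and Ern1 needed transgenic arrays 2 and 3 (highest adjusted p 0.104). Among 25 proteasome and autophagy genes Sqstm1, an autophagy receptor, was the 1 call, with a rise of 0.20 that was lost on omission of any 1 array (highest adjusted p 0.148). In the oxidative stress list Prdx1 rose by 0.41 (1 of 18), in the p53 list Polk rose by 0.23 (1 of 17; lost on omission of 5 of the arrays, highest adjusted p 0.149), and in the interferon list Stat2 fell by 0.55 (1 of 18). Per1 was the 1 fall among 18 glucocorticoid response genes. These shares lay below the 13.5% called over all genes in each of the lists but chaperones and the unfolded protein response.

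Among metabolic lists, cholesterol synthesis had the larger share of calls. Of 19 cholesterol synthesis genes 4 rose and 2 fell. Sqle, Hsd17b7, Mvd and Lss rose by 0.44, 0.43, 0.28 and 0.27, and Ebp and Tm7sf2 fell by 0.51 and 0.29. Ebp lay at 9.71, 9.69 and 9.75 in wild type and at 9.17, 9.19 and 9.27 in transgenic. The calls of Tm7sf2, Mvd and Lss were lost without transgenic array 2 or 3 (highest adjusted p 0.127). In all, the call of Mvd was lost on omission of 4 of the arrays and that of Lss of 5, 1 at a time. Of 25 genes of mitochondrial respiration Ppargc1b, a coactivator of mitochondrial genes, fell by 0.61 (adjusted p = 0.000272) and Cox4i1 rose by 0.24. Among 25 enzymes of histone acetylation Kat2a rose by 0.25 and Hdac10 fell by 0.29; neither call held without transgenic array 2 (adjusted p up to 0.110 on leaving out 1 array) or with the spread from all 18 arrays. H2bc21 was the 1 call among 14 histone genes, with a fall of 0.30. Of 17 ataxia genes Ppp2r2b rose by 0.30 and Atxn1 and Fgf14 fell by 0.24 and 0.25. The calls of Cox4i1, Atxn1 and Fgf14 were each lost on omission of 5 of the 6 arrays, 1 at a time (highest adjusted p 0.140).

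The direction of small list medians depended on scaling. With median centring, the medians of Bergmann glia and astrocytes, meninges, chaperones, the unfolded protein response, the interferon list, the oxidative stress list and the ataxia list turned from negative to positive, none beyond 0.04. With cyclic loess the median of midbrain and forebrain genes, 15 in all of which 3 rose and 4 fell, turned from -0.08 to 0.03. There Rprm, Barhl2 and Prox1 rose by 0.63, 0.43 and 0.33, and Lhx9, Emx1, Cck and Tac1 fell by 0.35, 0.25, 0.27 and 0.44. The calls of Prox1, Emx1, Cck and Tac1 were each lost on omission of 4 or 5 of the arrays, transgenic arrays 2 and 3 among them (highest adjusted p 0.179). Only Rprm and Barhl2 were called with the spread from all 18 arrays. The median of the 6 blood genes also turned with cyclic loess, from -0.07 to 0.02.

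The cerebellar effect was set against the hippocampal effect of the same age, from 3 and 3 other arrays. The difference of the effects was called for 584 genes (2.93%), above the hippocampal effect for 267 (1.34%) and below it for 317 (1.59%). All 15 of the largest cerebellar falls and 14 of the 15 largest rises had an effect that differed from the hippocampal one, the exception being Sostdc1 (adjusted p = 0.337). The largest changes were chosen on the cerebellar arrays that also enter this difference, so their number is no separate evidence. Igfbp5 changed by -2.10 in cerebellum and -0.39 in hippocampus, a difference of -1.71 (adjusted p = 2.27e-06). Tspan18 changed by -1.88 and -0.03, Eomes by -1.76 and -0.16, Chil5 by -1.70 and -0.04, and Stap2 by -1.70 and -0.16. In the other direction Slc44a5 rose by 1.83 in cerebellum against 0.22 in hippocampus, Lrrc7 changed by 1.48 and -0.12, Scn3b by 1.33 and -0.37, and Sfrp4 by 1.18 and -0.05. In wild-type hippocampus Chil5, Eomes, Sfrp4 and Stap2 lay at 4.12 to 5.66, below the granule neuron gene Cbln3 there. Tspan18, Igfbp5, Slc44a5, Lrrc7 and Scn3b lay at 8.36 to 10.75. Genes as low as Chil5, Eomes and Stap2 have little room to fall, and a tissue difference apart from level was not tested. Lurap1l, an adaptor-like gene, lay at 8.12, 7.75 and 8.02 in wild-type and 9.04, 9.03 and 8.83 in transgenic cerebellum, a rise of 1.01, and its hippocampal change was -0.78. Plk5 and Car4 differed in the same direction in hippocampus, by -0.95 and -0.70, and their cerebellar falls were the larger (adjusted p = 0.00719 and 0.00447). The difference for Prnp was 0.36 and did not pass (adjusted p = 0.0596). With the spread taken from all 18 arrays the count was 308, and without transgenic cerebellum array 3 it was 371.

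**Figure D5:**
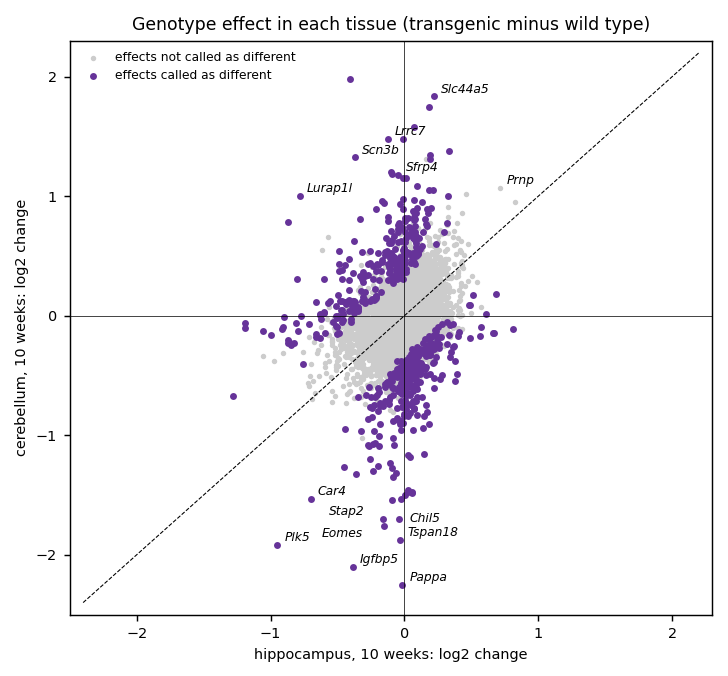
Log2 change (transgenic minus wild type) of each gene in hippocampus (horizontal) and cerebellum (vertical) at 10 weeks; purple points are the 584 genes whose effects were called as different, and the dashed line marks equal effects. Most named genes lie far from 0 on the cerebellar axis and near 0 on the hippocampal axis, while Plk5, Car4 and Prnp lie on the same side of 0 in both. Some of the named genes, Chil5, Eomes and Stap2 among them, were low in hippocampus and had little room to fall there.

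Genes that can mark pool composition were also examined. Xist lay at 5.18 to 5.31 in wild type and 5.14 to 5.22 in transgenic, low on every array of these animals labelled male, with a difference of -0.08 (adjusted p = 0.422). The Y-linked genes Uty and Eif2s3y rose by 0.29 and 0.27 (adjusted p = 0.0378 and 0.0416), and Kdm5d differed by 0.18 (adjusted p = 0.133). The calls of Uty and Eif2s3y were lost under quantile normalisation and cyclic loess, and on omission of wild-type arrays 1 and 3 and transgenic arrays 2 and 3, each in turn (highest adjusted p 0.155). Of 14 genes known to differ between mouse strains 3 were called. Alad, which is duplicated in some DBA mice, lay at 11.22, 11.15 and 11.30 in wild type and at 10.22, 10.28 and 10.60 in transgenic, and fell by 0.86 (adjusted p = 0.000201). Nnt, which carries a deletion in C57BL/6J, rose by 0.38, and Myo5a, the site of the dilute mutation of DBA, fell by 0.23. The part of strain alleles in the changes of other genes was not tested. The call of Alad held with each array left out, and those of Nnt and Myo5a did not (highest adjusted p 0.139).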

How the data were processed

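Total RNA of pooled animals was read on the Affymetrix Mouse Gene 1.0 ST array. The deposited values are log2 expression from RMA run by the authors with the oligo package, per the submitters' processing notes; their versions were not given in these sources. Arrays carry no read depth; their number, 3 per group, limits the precision. The table held 35556 probe sets, of which 21789 had exactly 1 gene symbol, 1621 several and 12146 no entry in the platform annotation; 1 cell was missing, in a probe set with no symbol. Symbols were updated by gene number for 21698 probe sets. For 999 genes with more than 1 probe set, the one with the highest mean over the 6 arrays stood for the gene, leaving 19938 genes. No column was left unused. Within a set of 6 arrays 76 or more exact values were shared between arrays and at most 2 between sets, as separate RMA runs would give, so the fit used only the 6 arrays.

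Genotypes were compared with limma 3.58.1 in R 4.3.3 (lmFit, eBayes), with Benjamini-Hochberg adjustment over all genes and a call at an adjusted p below 0.05; SE is the moderated one. The script was tested on simulated data. The difference from hippocampus was fitted on the 12 arrays of 10 weeks. Named genes are the 15 largest called, non-overlapping changes each way (predicted genes, olfactory and vomeronasal receptors and small RNAs counted but not named), the called members and up to 4 of smallest p in each list, up to 5 genes each way for the difference, and the transgene and sex-linked genes. Members and lists were chosen with earlier results of these data known.

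Same-numbered arrays deviated together: correlations of their deviations were 0.112, 0.279 and 0.183, against -0.239 to 0.078 for other pairs. The pairing rests on these data, since the labels do not tie the numbers. Alternatives were the replicate block, spread from all 18 arrays, a trend or robust eBayes, array weights, median centring, quantile and cyclic loess normalisation, other choices of probe set, dim genes left out and each array left out.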

Additional observations from a re-analysis of the deposited data

Results flagged for a closer look

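The genotype effect differed between cerebellum and hippocampus of 10 weeks, by a limma test of the difference itself (Benjamini-Hochberg adjustment over all genes), for 584 genes. The cerebellar effect lay above the hippocampal one by 1.79 for Lurap1l, 1.6 for Lrrc7, 1.62 for Slc44a5, 1.7 for Scn3b and 1.22 for Sfrp4. It lay below the hippocampal one by a difference of -1.71 for Igfbp5, -1.65 for Chil5, -1.54 for Stap2, -1.85 for Tspan18 and -1.6 for Eomes. These 10 genes were named by their smallest p, with adjusted p between 2.27e-06 and 5.23e-06. Among them Chil5, Eomes and Stap2 were low in wild-type hippocampus, at 4.12 to 5.66, which leaves little room for a fall there.

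Probe sets that name no single gene were outside the comparison of genes. Of 13766 such probe sets, 231 (1.68%) were called when all were fitted together, 101 higher and 130 lower in transgenic cerebellum. That fit held 35555 probe sets with an adjustment of its own, so the share cannot be set against the 13.5% of the gene fit.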

How the results depend on the processing

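Both the counts and the calls of single genes moved. Median centring, quantile normalisation and cyclic loess kept 76.8%, 77.6% and 77.8% of the calls made on the deposited values. With the spread taken from all 18 arrays 1230 genes were called (515 higher, 715 lower) and the difference from hippocampus was called for 308. Array weights gave 5045 genes, 3585 of them lower. Median centring gave 1907 higher and 1030 lower. The replicate block, which uses the pairing of same-numbered arrays, gave 2526 lower genes. It ended none of the 191 calls followed among the lists and named genes. It added several, among them those of Ttr, Igfbp2, Alas2 and Kat2b (limma adjusted p = 0.00951, 0.011, 0.0173 and 0.0251). Leaving out each array in turn gave totals of 1285 to 4114, with 486 to 1041 higher and 735 to 3073 lower, and 371 to 544 genes for the difference from hippocampus. Of 191 called genes of the lists and named genes, 126 kept the call with each array left out; omission of wild-type arrays 1, 2 and 3 removed 53, 10 and 40 calls, and omission of transgenic arrays 1, 2 and 3 removed 33, 52 and 50. None of the followed genes changed direction while called. Trend or robust eBayes, other probe set choices, and leaving out dim genes kept each count within 1.5 times. Cyclic loess was chosen after the data were seen. The causes were not tested. Among the 30 largest changes, 29 kept the call under all of these alternatives, and Sostdc1 lost it under robust eBayes (adjusted p = 0.105).

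With dim genes left out 1104 genes were higher and 1678 lower, close to the split with them. By level, the median change was -0.09 and -0.12 in the lower quartiles and 0.02 and 0.01 in the upper ones.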

Other observations

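The gene families given here were singled out after their values had been seen, so their counts are descriptions. Over all genes 5.21% were called higher and 8.31% lower. Calls of family members not already named above were not followed with arrays left out or under the replicate block. Of 22 protocadherin beta genes, clustered cell surface proteins of neurons with near-identical copies whose probes may share signal, 20 rose and none fell, with a median change of 0.44. Pcdhb3 rose by 0.88 (adjusted p = 2.16e-05) and Pcdhb2 by 0.87. In hippocampus of 10 weeks the median change of these 22 genes was 0.134. The effect was called as different between the tissues for 4 of them. All 3 Csmd genes rose: Csmd3 by 1.15, Csmd2 by 1.08 and Csmd1 by 0.53. Of 57 cytosolic ribosomal protein genes 18 rose and none fell (median 0.17; 15 to 27 rises under the other scalings), led by Rps20 and Rpl8 at 0.43 each. Among Eph receptors and ephrins Epha5, Epha6, Epha7 and Ephb1 rose by 0.79, 0.62, 0.43 and 0.28, and Efna1, Epha1 and Epha10 fell by 0.44, 0.36 and 0.30.

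Of 16 carbonic anhydrase genes 6 fell, among them Car9 by 0.82 and Car11 by 0.46 beside Car4. Of 44 collagen genes 8 fell, against 8.31% lower over all genes, Col20a1 with the largest fall of 0.59. A negative difference was seen for 42 (median -0.20), as for 63.1% of all genes. Many collagen genes lay in the lower quartiles of level, where the median change over all genes was itself -0.09 and -0.12. Under the other scalings 4 to 6 fell, and each also called 1 higher. Nicotinic receptor subunits Chrna3 and Chrnb4 fell by 0.91 and 0.71, Chrnb2 and Chrna10 by 0.32 and 0.30, and Chrna7 rose by 0.30. Of 22 cyclic nucleotide phosphodiesterase genes 2 rose, Pde3a by 1.15 (adjusted p = 2.62e-06) and Pde1b by 0.62, and Pde2a, Pde1c and Pde5a fell by 0.67, 0.56 and 0.29. Of 10 adenylate cyclase genes Adcy5 rose by 0.43 and Adcy1 and Adcy8 fell by 0.56 and 0.47. Beside Pappa and Igfbp5, Stc1, an inhibitor of the Pappa product, fell by 0.22 and Igfbp4, another of its substrates, rose by 0.54 (adjusted p = 0.0274). The hippocampal change of Igfbp4 was -0.49.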
